A study of Mus musculus with 42 samples.

Results

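The genes described here are 30 mouse bromodomain genes other than those of the BRWD and SMARCA families. They were taken by name, as a list of the family, and not by a rule on measured values. All 30 were among the 52636 gene lines of each culture count file, and all 30 passed the filter on low counts that left 17173 genes for testing. For description they were grouped as 2 BET genes, 4 acetyltransferases, 4 scaffold subunits of acetyltransferase complexes, 6 BAZ and BPTF remodeller genes, 4 TRIM genes, 3 subunits of the BAF family of complexes, 2 AAA ATPases, 3 genes of methyltransferases and TFIID, and 2 ZMYND readers.

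A bromodomain is a fold in a protein that holds a lysine carrying an acetyl group, most often on a histone tail, and so ties a protein to chromatin that acetyltransferases have marked. Some carriers, such as CBP and p300, write the same mark that they read, and others bring remodelling enzymes, methyltransferases or the general transcription machinery to it. In neurons these proteins are known as readers and writers at promoters and enhancers whose activity changes with stimulation.

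The study asked how the extra copy of Brwd1, itself a bromodomain gene, bears on chromatin and expression in a mouse model of Down syndrome. RNA was sequenced from primary neuronal cultures of embryonic day 16 forebrain, in 3 libraries for each of 3 genotypes, with the sexes mixed according to the labels. Chromatin data came from hippocampus of adult males: 1 list of SMARCA2/4 ChIP peaks for each genotype, from mice of 6 to 8 weeks with tissue of 2 animals in each replicate, and 1 list of ATAC peaks for each genotype, from NeuN+ nuclei. SMARCA2 and SMARCA4 are the ATPases of the BAF remodelling complex, and ATAC marks open chromatin.

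The euploid mice carried the normal set of chromosomes. Ts65Dn mice carry a small extra chromosome that holds the distal part of chromosome 16 and the centromeric end of chromosome 17, and the latter has no counterpart on the human chromosome that is triplicated in Down syndrome. Mice labelled Ts65Dn;Brwd1+/- carry that chromosome and, in addition, 1 mutant Brwd1 allele named repro5, which is present in every cell since no Cre driver was used. All 3 genotypes shared the mixed background DBA/2J x B6EiC3Sn/J, and all cultures had been kept with AraC, a drug that stops dividing glia. None of the 30 genes lies in the triplicated segments, although Crebbp is on chromosome 16 and Brd2, Brpf3 and Kat2b are on chromosome 17. Taf1 is on the X chromosome.

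The libraries held 17270070 to 25892802 counts in gene lines, and the smallest count of any of the 30 genes in any library was 64, for Baz1a. Brwd1 itself stood at 93.2, 85.9 and 89.2 CPM (counts of a gene per 1000000 counts of the library) in euploid cultures, at 129, 126 and 125 CPM in Ts65Dn cultures and at 145, 146 and 124 CPM in the libraries labelled Ts65Dn;Brwd1+/-. It was thus not lower in the last group than in Ts65Dn (quasi-likelihood test of edgeR, Benjamini-Hochberg adjusted p = 0.186). The study's own check of this allele used qPCR with primers at the 3′ end of the transcript in other samples, whereas these counts cover the whole gene. Xist, the RNA of the inactive X chromosome, stood at 0.526 to 1.12 CPM in euploid and Ts65Dn libraries together and at 1409 to 1982 CPM in the libraries labelled Ts65Dn;Brwd1+/-. Ddx3y, a gene of the Y chromosome, stood at 46.2 to 58.7 CPM in the former 6 libraries and at 0 to 0.0892 CPM in the latter 3. In both comparisons that use the libraries labelled Ts65Dn;Brwd1+/-, sex and genotype therefore cannot be told apart.

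Levels of cell type markers also differed between the genotypes. Of 12 neuronal markers, 10 were lower in Ts65Dn than in euploid libraries, and their summed level was 4695 to 5719 CPM in euploid, 1204 to 3063 CPM in Ts65Dn and 4996 to 6243 CPM in labelled Ts65Dn;Brwd1+/- libraries. The 12 astrocyte markers summed to 5626 to 6588, 8105 to 9207 and 5192 to 6062 CPM in the same order. Of these sums Clu alone made up 1998 to 2227, 3822 to 4654 and 1072 to 1381 CPM, so their order leans on 1 gene. Between labelled Ts65Dn;Brwd1+/- and Ts65Dn libraries 4 of the 12 astrocyte markers passed as higher and 6 as lower. The 12 cell cycle genes summed to 268.7 to 289, 371.7 to 433.1 and 650.3 to 663.8 CPM, and all 12 were higher in Ts65Dn than in euploid cultures. Markers of the oligodendrocyte lineage summed to 126.1 to 146.7, 142.5 to 171.4 and 286.7 to 336.1 CPM, and those of meninges and fibroblasts to 668.3 to 699, 1251 to 1894 and 347.7 to 456.9 CPM. Microglial markers summed to 27.1 to 37.8, 44.1 to 54.0 and 18.3 to 25.2 CPM, with Trem2 at 0 in the last group. Endothelial markers summed to 158 to 169.3, 794.3 to 1031 and 136.9 to 192.8 CPM, yet the defining marker Cldn5 was at 0 in all 9 libraries. Between Ts65Dn and euploid libraries 6 of 12 astrocyte markers passed as higher and 2, the glutamate transporters Slc1a2 and Slc1a3, as lower (-0.98 and -0.62 on the log2 scale). Of meningeal and fibroblast markers 8 of 12 were higher and 4 lower, of 7 tested microglial markers 1 was higher and 2 lower, and of 9 tested oligodendrocyte markers 1 was higher and 1 lower. Of 6 tested endothelial markers only Kdr, at 78.9 to 87.6 CPM in euploid and 651.2 to 858.1 CPM in Ts65Dn libraries, and Slco1a4 passed, both higher. The part of these shifts in the results below was not tested, and in such bulk samples fewer cells of a type cannot be told apart from less RNA per cell.

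Promoters are shown for genes that passed the test between Ts65Dn and euploid cultures and had an ATAC peak over an annotated start. By size of change these were Atad2, Kat2a, Trim33, Brd9 and Brd7. The 3 sequences printed run from 250 bases before to 50 bases after the start and come from RefSeq, build GRCm38.p6. They are Kat2a at chr11:100712418-100712717 on the minus strand, Brd9 at chr13:73937561-73937860 on the plus strand and Brd7 at chr8:88362123-88362422 on the minus strand. Each is written 5′ to 3′ along the gene's own strand, and capitals mark matches on either strand to the motifs named after the sequences.

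Kat2a: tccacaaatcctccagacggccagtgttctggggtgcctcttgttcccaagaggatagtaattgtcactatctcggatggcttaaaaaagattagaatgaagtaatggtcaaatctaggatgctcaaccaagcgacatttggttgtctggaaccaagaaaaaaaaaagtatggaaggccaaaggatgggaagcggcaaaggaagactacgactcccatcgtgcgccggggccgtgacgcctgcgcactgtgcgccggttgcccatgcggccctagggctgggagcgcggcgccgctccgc
Brd9: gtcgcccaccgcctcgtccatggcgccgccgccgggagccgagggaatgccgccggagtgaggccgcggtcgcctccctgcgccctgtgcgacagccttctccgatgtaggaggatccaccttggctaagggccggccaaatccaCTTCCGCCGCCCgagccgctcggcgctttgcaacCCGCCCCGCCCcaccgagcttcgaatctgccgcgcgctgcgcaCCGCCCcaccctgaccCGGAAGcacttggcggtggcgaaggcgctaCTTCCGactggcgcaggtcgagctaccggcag
Brd7: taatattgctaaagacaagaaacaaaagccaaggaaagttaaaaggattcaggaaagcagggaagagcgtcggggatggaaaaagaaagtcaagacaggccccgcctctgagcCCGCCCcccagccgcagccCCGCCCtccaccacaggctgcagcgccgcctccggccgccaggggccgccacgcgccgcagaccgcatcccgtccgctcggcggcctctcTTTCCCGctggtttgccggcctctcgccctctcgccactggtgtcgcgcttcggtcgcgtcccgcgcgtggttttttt

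The motifs searched on both strands were the GC box GGGCGG, the ETS core CGGAAG, the box CCAAT, the E2F core TTTCCCG, the CRE core TGACGTC and the NRF1 core GCATGCG. Brd9 held 4 GC boxes and 3 ETS cores, with a pair of GC boxes that overlap by 1 base and an ETS core that runs directly into a GC box. Brd7 held 2 GC boxes and 1 E2F core, and in the Kat2a window none of the 6 letter strings was found. The share of G and C was 54.3% for Kat2a, 72% for Brd9 and 64% for Brd7. Of 24 of the 30 genes with an entry that was searched, 18 (75%) held a GC box, against 35.7% of all 32851 promoters of the same length in the table. An ETS core was found in 3 of the 24, against 16.9% of all promoters, a CCAAT box in 6 against 37.4%, an E2F core in 1 against 3.39%, a CRE core in 3 against 3.21% and an NRF1 core in 0 against 3.58%. These counts describe letters in a window and no binding was measured by them.

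The genes were well expressed as a set. Their median mean level was 80.6 CPM, against 19.2 CPM for all tested genes. Per kilobase of exon, Trim28 was the highest at 60.8 CPM in euploid cultures, followed by Brd2 at 44.5 CPM. Baz1a at 0.518, Cecr2 at 0.586 and Trim66 at 0.633 CPM per kilobase were the lowest. The coefficient of variation between the 3 libraries of a genotype had a median over the 30 genes of 6.21% in euploid, 4.75% in Ts65Dn and 4.15% in labelled Ts65Dn;Brwd1+/- cultures.

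**Figure D1:**
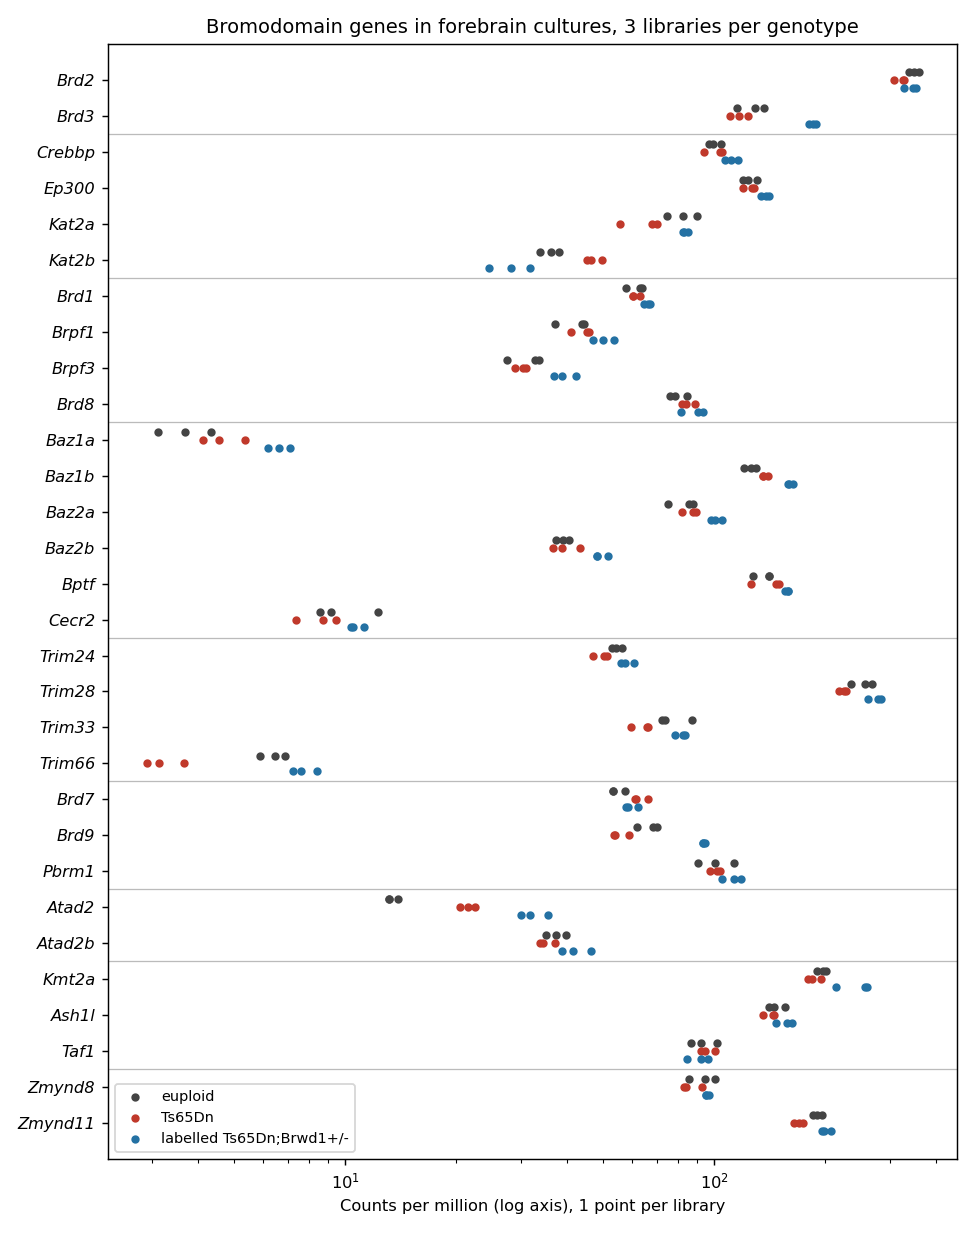
Level of each of the 30 bromodomain genes in CPM on a log axis, 1 point per culture library and 3 libraries per genotype, with lines between the functional groups. Most genes lie between 30 and 200 CPM with the genotypes close together, while Atad2, Trim66, Brd9, Kat2b, Baz1b and Zmynd11 show 3 genotypes without overlap.

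Between Ts65Dn and euploid cultures, 7 of the 30 genes had an adjusted p under 0.05 and are called passed here (23.3%), against 46.7% of all tested genes. The 3 higher genes were Atad2, Kat2b and Brd7, where 25.6% of all tested genes were higher, and the 4 lower ones were Trim66, Kat2a, Trim33 and Brd9, where 21.1% were lower. At an unadjusted p under 0.05 there were 9. The median log2 fold change of the 30 genes was -0.03 against 0.04 for all tested genes, and the median of its absolute size was 0.12 against 0.33. For 12 of the 30 genes, 4 higher and 8 lower, the Ts65Dn and euploid libraries lay apart with no overlap, against 56.8% of all tested genes.

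In the labelled Ts65Dn;Brwd1+/- cultures set against Ts65Dn, 17 of the 30 genes passed (56.7%), against 58.1% of all tested genes. Of these, 16 were higher, where 27.6% of all tested genes were called higher, and Kat2b alone was lower, where 30.5% were. The 30 genes had a median log2 fold change of 0.23, and all tested genes of 0.00. Without regard to sign the medians were 0.23 and 0.43. The libraries did not overlap for 27 of the 30, 26 of them higher, against 68.4% of all tested genes in either direction. With library sizes unscaled, or when every library had to hold 10 counts or more, 24 and 25 genes passed in place of 17, against 58.5 and 61.2% of all genes tested under these settings.

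In the same cultures set against euploid ones, 10 of the 30 genes passed (33.3%), against 29.2% of all tested genes. The 9 higher ones were Brd3, Brpf3, Baz1a, Baz1b, Baz2a, Baz2b, Brd9, Atad2 and Kmt2a, where 14% of all tested genes were called higher, and Kat2b was lower, where 15.2% were. The median log2 fold change was 0.15 against -0.02. For 18 of the 30 genes the libraries did not overlap, against 45.9% of all tested genes. Without euploid replicate 1, 6 of the 30 passed, against 23.1% of all genes then tested. Each genotype serves in 2 of these 3 comparisons, so they share libraries and are given side by side. In a test of any difference across the 3 genotypes 16 of the 30 passed, against 63.8% of all tested genes. The summed level of the 30 genes was 2738 to 2858 CPM in euploid, 2653 to 2742 in Ts65Dn and 3148 to 3181 in labelled Ts65Dn;Brwd1+/- libraries.

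**Figure D2:**
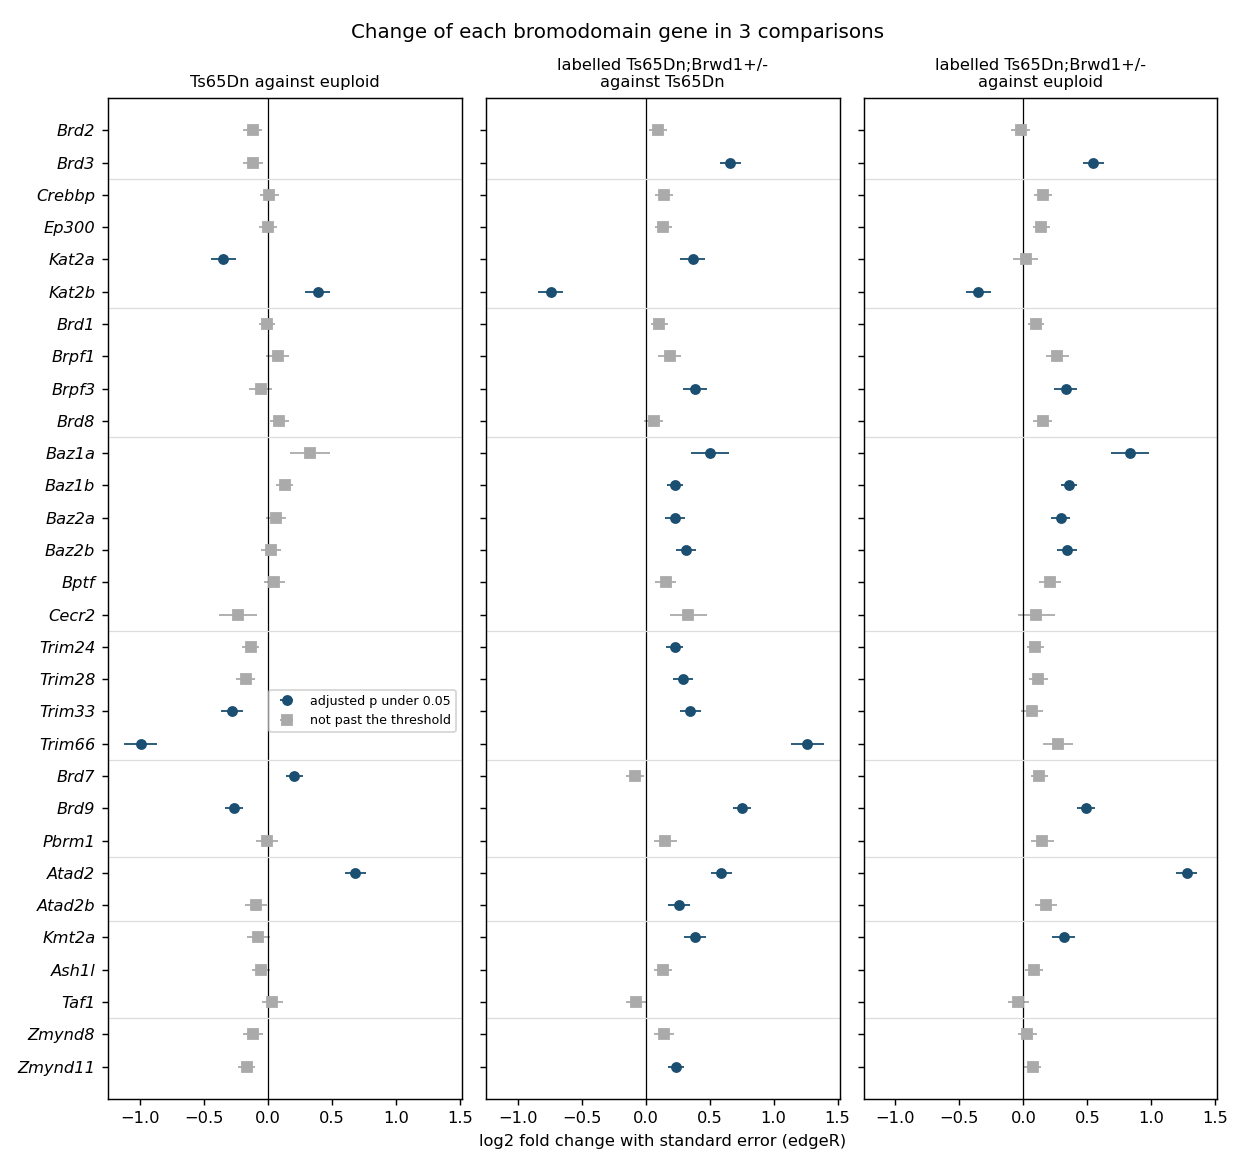
log2 fold change of each gene with its standard error from edgeR, in 3 comparisons drawn as panels that share libraries; blue circles passed an adjusted p of 0.05 and grey squares did not. In the first panel 7 genes passed, in both directions, and in the middle panel 16 of the 17 that passed were higher and Kat2b was lower.

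The BET proteins bind acetylated histones and help RNA polymerase II past its pause. Brd2 was among the most abundant of the 30 genes and stood at 337, 359 and 348 CPM in euploid, 326, 328 and 307 CPM in Ts65Dn and 352, 328 and 347 CPM in labelled Ts65Dn;Brwd1+/- libraries. It passed in none of the 3 comparisons, with adjusted p between 0.198 and 0.851. Brd3, its paralogue, stood at 115, 137 and 129 CPM in euploid, 111, 124 and 117 CPM in Ts65Dn and 186, 181 and 189 CPM in labelled Ts65Dn;Brwd1+/- libraries. All 3 libraries of the last group were above all 6 others. The log2 fold change of Brd3 was 0.66 ± 0.08 (SE) against Ts65Dn (adjusted p = 7.5e-05, edgeR quasi-likelihood test) and 0.55 ± 0.08 against euploid (adjusted p = 0.000798).

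Among the acetyltransferases, Crebbp and Ep300, which encode CBP and p300, lay at 94.0 to 116 CPM and at 120 to 141 CPM over the 9 libraries and passed in no comparison. Kat2a (GCN5) and Kat2b (PCAF) are alternative catalytic subunits of the SAGA and ADA2A-containing coactivator complexes, and they moved apart. Kat2a stood at 74.8, 89.96 and 82.2 CPM in euploid, 68.0, 70.1 and 55.7 CPM in Ts65Dn and 85.0, 82.4 and 83.0 CPM in labelled Ts65Dn;Brwd1+/- libraries. Its Ts65Dn libraries were below all others. The log2 fold change was -0.35 ± 0.10 in Ts65Dn against euploid (edgeR, adjusted p = 0.0154), and 0.37 ± 0.10 between labelled Ts65Dn;Brwd1+/- and Ts65Dn (adjusted p = 0.00887). Without euploid replicate 2 the former change was -0.28 and did not pass (adjusted p = 0.0581).

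Kat2b stood at 36.2, 33.7 and 38.1 CPM in euploid, 45.2, 46.3 and 49.7 CPM in Ts65Dn and 24.6, 31.7 and 28.2 CPM in labelled Ts65Dn;Brwd1+/- libraries. The 3 genotypes did not overlap, with Ts65Dn highest and labelled Ts65Dn;Brwd1+/- lowest. The log2 fold changes were 0.39 ± 0.10 in Ts65Dn against euploid, -0.74 ± 0.10 in labelled Ts65Dn;Brwd1+/- against Ts65Dn and -0.35 ± 0.10 against euploid. Their adjusted p values from edgeR were 0.00826, 0.00012 and 0.0206. The last did not pass without euploid replicate 1 or 3 (edgeR, adjusted p of 0.0526 and 0.0502) or with library size alone as the scaling (adjusted p = 0.0564).

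The 4 scaffold genes hold acetyltransferase complexes together: Brd1, Brpf1 and Brpf3 in the MOZ, MORF and HBO1 complexes, and Brd8 in the TIP60 and p400 complex. None passed between Ts65Dn and euploid, where 46.7% of all tested genes did, with 0 also at an unadjusted p under 0.05 and by DESeq2. Brpf3 passed against both other genotypes. It stood at 27.5, 32.8 and 33.5 CPM in euploid, 28.9, 31.0 and 30.4 CPM in Ts65Dn and 38.8, 36.7 and 42.3 CPM in labelled Ts65Dn;Brwd1+/- libraries. The log2 fold change was 0.39 ± 0.09 against Ts65Dn (edgeR, adjusted p = 0.00451) and 0.33 ± 0.09 against euploid (adjusted p = 0.021). The latter did not pass without euploid replicate 1 or without replicate 1 or 3 of the labelled Ts65Dn;Brwd1+/- group (adjusted p up to 0.11). Brd1 lay at 57.9 to 67.2 CPM, Brpf1 at 37.1 to 53.6 CPM and Brd8 at 76.0 to 93.3 CPM over all 9 libraries.

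The BAZ proteins are non-catalytic partners of the ISWI remodelling ATPases, and BPTF and CECR2 are partners of the same enzymes in NURF and CERF. None of these 6 genes passed between Ts65Dn and euploid cultures, where 46.7% of all tested genes did, with 0 at an unadjusted p under 0.05 and 0 by DESeq2. Against Ts65Dn the 4 BAZ genes passed in the libraries labelled Ts65Dn;Brwd1+/-, all higher, and the same 4 passed as higher against euploid, where 27.6 and 14% of all tested genes were called higher. Baz1a, the partner in ACF and CHRAC, was the lowest of the 30 genes per kilobase in euploid cultures and stood at 3.11, 3.68 and 4.32 CPM in euploid, 4.12, 4.54 and 5.34 CPM in Ts65Dn and 6.20, 7.07 and 6.61 CPM in labelled Ts65Dn;Brwd1+/- libraries. The euploid and Ts65Dn values overlapped and the third group lay above both, with a log2 fold change of 0.50 ± 0.15 against Ts65Dn (edgeR, adjusted p = 0.0134) and 0.83 ± 0.15 against euploid (adjusted p = 0.00238).

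Baz1b, the WSTF subunit deleted in Williams syndrome, was far more abundant per kilobase of exon. It stood at 126, 120 and 130 CPM in euploid, 136, 136 and 140 CPM in Ts65Dn and 160, 159 and 163 CPM in labelled Ts65Dn;Brwd1+/- libraries, with no overlap between genotypes. Its log2 fold change was 0.23 ± 0.06 against Ts65Dn (edgeR, adjusted p = 0.0109) and 0.36 ± 0.06 against euploid (adjusted p = 0.00218). Baz2b, less studied than its relatives, stood at 37.3 to 40.3, 36.6 to 43.2 and 48.0 to 51.7 CPM. It was higher by 0.32 ± 0.08 against Ts65Dn and by 0.34 ± 0.08 against euploid on the log2 scale. Baz2a, the NoRC subunit that silences ribosomal DNA, stood at 74.9 to 87.9, 82.1 to 89.4 and 98.1 to 105 CPM. It passed against both (0.23 ± 0.08 and 0.29 ± 0.08, edgeR, adjusted p = 0.0265 and 0.0176). The first call was lost without Ts65Dn replicate 1 or 2 or labelled Ts65Dn;Brwd1+/- replicate 2 or 3 (adjusted p up to 0.0882), and the other without the filter on low counts, euploid replicate 1 or 3 or labelled Ts65Dn;Brwd1+/- replicate 2 or 3 (up to 0.0828). Bptf lay at 126 to 159 CPM and Cecr2 at 7.36 to 12.3 CPM over the 9 libraries, and neither passed.

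TRIM24, TRIM28, TRIM33 and TRIM66 join a PHD finger to a bromodomain and act mostly as corepressors. Trim66 had the lowest levels of the group and the largest change of the 30 genes between Ts65Dn and euploid. It stood at 5.87, 6.89 and 6.47 CPM in euploid, 2.90, 3.66 and 3.13 CPM in Ts65Dn and 7.22, 8.41 and 7.62 CPM in labelled Ts65Dn;Brwd1+/- libraries. The Ts65Dn libraries were below all 6 others. The log2 fold change was -0.99 ± 0.13 in Ts65Dn against euploid (edgeR, adjusted p = 0.000301) and 1.26 ± 0.13 between labelled Ts65Dn;Brwd1+/- and Ts65Dn (adjusted p = 2.37e-05). The smallest count behind these values was 71.

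Trim33, which partners SMAD proteins, stood at 86.9, 73.8 and 72.1 CPM in euploid, 66.3, 65.7 and 59.6 CPM in Ts65Dn and 83.4, 82.4 and 78.5 CPM in labelled Ts65Dn;Brwd1+/- libraries. It was lower in Ts65Dn with a log2 fold change of -0.28 ± 0.09 (edgeR, adjusted p = 0.0213), a call lost without euploid replicate 1 or without Ts65Dn replicate 3 (adjusted p = 0.0641 in both). Trim28 (KAP1), the corepressor of KRAB zinc finger proteins, stood at 235 to 267, 219 to 228 and 261 to 283 CPM. Trim24, a coregulator of nuclear receptors, stood at 52.8 to 56.2, 47.0 to 51.4 and 56.0 to 60.7 CPM. In both, the Ts65Dn libraries lay below those of the other genotypes, and neither passed against euploid by edgeR. Trim28 was called lower in Ts65Dn than in euploid in 4 of 19 alternatives, among them DESeq2 (adjusted p = 0.0302). Against Ts65Dn all 4 TRIM genes passed as higher in the libraries labelled Ts65Dn;Brwd1+/-, as did 27.6% of all tested genes. Against euploid 0 passed, where 29.2% of all did, with 1 at an unadjusted p under 0.05 and 0 by DESeq2. The call of Trim24 was lost without Ts65Dn replicate 2 or labelled Ts65Dn;Brwd1+/- replicate 3 (adjusted p up to 0.0692).

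Forms of the BAF complex are told apart in part by bromodomain subunits: BRD9 marks the non-canonical form, and BRD7 and PBRM1 mark PBAF. Brd9 stood at 61.9, 69.9 and 68.4 CPM in euploid, 58.7, 53.5 and 54.0 CPM in Ts65Dn and 93.5, 94.3 and 93.2 CPM in labelled Ts65Dn;Brwd1+/- libraries. The 3 genotypes did not overlap, with Ts65Dn lowest. The log2 fold changes were -0.27 ± 0.07 in Ts65Dn against euploid, 0.76 ± 0.07 in labelled Ts65Dn;Brwd1+/- against Ts65Dn and 0.49 ± 0.07 against euploid, with adjusted p of 0.011, 1.4e-05 and 0.000677 from edgeR. All 3 calls passed under each of the 19 alternative analyses.

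Brd7 stood at 53.3, 53.2 and 57.2 CPM in euploid, 61.4, 61.3 and 66.2 CPM in Ts65Dn and 58.4, 57.7 and 62.2 CPM in labelled Ts65Dn;Brwd1+/- libraries. It was higher in Ts65Dn than in euploid by 0.21 ± 0.07 on the log2 scale (edgeR, adjusted p = 0.03), and this call was lost in 12 of 19 alternative analyses. Among these were the ones that left out any library other than Ts65Dn replicate 1 (adjusted p up to 0.107) and the one without a filter on low counts (adjusted p = 0.27). Pbrm1 lay at 90.5 to 119 CPM and passed in no comparison.

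ATAD2 is an AAA ATPase that binds acetylated histones on newly replicated chromatin, ATAD2B is its paralogue, and Atad2 is known as an E2F target that follows the cell cycle. Atad2 stood at 13.2, 13.1 and 13.9 CPM in euploid, 20.5, 21.5 and 22.6 CPM in Ts65Dn and 30.1, 35.4 and 31.8 CPM in labelled Ts65Dn;Brwd1+/- libraries. The genotypes did not overlap and stood in that order. The log2 fold changes were 0.68 ± 0.08 in Ts65Dn against euploid (edgeR, adjusted p = 0.00021), 0.59 ± 0.08 in labelled Ts65Dn;Brwd1+/- against Ts65Dn (adjusted p = 0.00017) and 1.27 ± 0.08 against euploid (adjusted p = 8.91e-06). The sum of the 12 cell cycle markers, given above, stood in the same order of genotypes, with 11 of the 12 called higher in labelled Ts65Dn;Brwd1+/- than in Ts65Dn libraries, and their part in the change of Atad2 was not tested. Atad2b stood at 35.0 to 39.8, 33.8 to 37.0 and 38.8 to 46.4 CPM and passed only against Ts65Dn, at 0.26 ± 0.09 (edgeR, adjusted p = 0.0233), a call lost without Ts65Dn replicate 1 or 2 or labelled Ts65Dn;Brwd1+/- replicate 2 (up to 0.0699).

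Kmt2a (MLL1), which methylates histone H3 at active promoters, stood at 190, 201 and 197 CPM in euploid, 184, 195 and 179 CPM in Ts65Dn and 257, 259 and 214 CPM in labelled Ts65Dn;Brwd1+/- libraries. Replicate 3 of the last group was the lowest of its group and still above the 6 others. The log2 fold change was 0.39 ± 0.09 against Ts65Dn (edgeR, adjusted p = 0.00344) and 0.31 ± 0.09 against euploid (adjusted p = 0.0215), the latter lost without euploid replicate 1 or 3 or labelled Ts65Dn;Brwd1+/- replicate 1 or 2 (up to 0.107). Ash1l, another histone methyltransferase, lay at 136 to 162 CPM, and Taf1, the largest subunit of TFIID, at 84.7 to 102 CPM. Neither passed in any comparison. Of the ZMYND readers, Zmynd11 stood at 185 to 196, 165 to 175 and 196 to 207 CPM and passed as higher in labelled Ts65Dn;Brwd1+/- than in Ts65Dn libraries (0.24 ± 0.07, edgeR, adjusted p = 0.0103), while Zmynd8 lay at 83.0 to 100.4 CPM and did not pass. Against euploid the Ts65Dn libraries of Zmynd11 did not overlap the euploid ones (-0.16 ± 0.07, edgeR, adjusted p = 0.0619), and it was called lower in 8 of 19 alternatives, among them DESeq2 (adjusted p = 0.0108) and limma-voom (adjusted p = 0.0472).

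Paralogues were also compared within a library, where scaling between libraries cancels. Over 10 pairs the log2 ratio of counts per kilobase was separated between Ts65Dn and euploid libraries in 4. It was separated between labelled Ts65Dn;Brwd1+/- and Ts65Dn in 6 and between labelled Ts65Dn;Brwd1+/- and euploid in 5. For single genes the libraries did not overlap for 56.8, 68.4 and 45.9% of all tested genes. No such share was computed for ratios of other gene pairs, so these numbers of pairs cannot be called high or low. With 3 libraries against 3 the exact permutation test cannot go below p = 0.1, two-sided, and the smallest value adjusted over the 30 tests was 0.2, so none could pass. Kat2a over Kat2b had a mean log2 ratio of 1.68 ± 0.20 (SD, n = 3) in euploid, 0.93 ± 0.25 in Ts65Dn and 2.06 ± 0.20 in labelled Ts65Dn;Brwd1+/- libraries. Brd7 over Brd9 stood at 0.12 ± 0.09, 0.59 ± 0.11 and -0.25 ± 0.06, so that Brd9 was the higher of the pair per kilobase only in the last group.

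For Atad2 over Atad2b the ratio was -1.56 ± 0.06 in euploid, -0.79 ± 0.02 in Ts65Dn and -0.46 ± 0.09 in labelled Ts65Dn;Brwd1+/- libraries. Brd2 over Brd3 was at 1.37 ± 0.08, 1.36 ± 0.09 and 0.79 ± 0.03. Brpf1 over Brpf3 was at 0.77 ± 0.03, 0.90 ± 0.04 and 0.71 ± 0.01, and was separated in all 3 comparisons. Crebbp over Ep300 hardly differed, at -0.24 ± 0.01, -0.23 ± 0.04 and -0.23 ± 0.05.

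**Figure D3:**
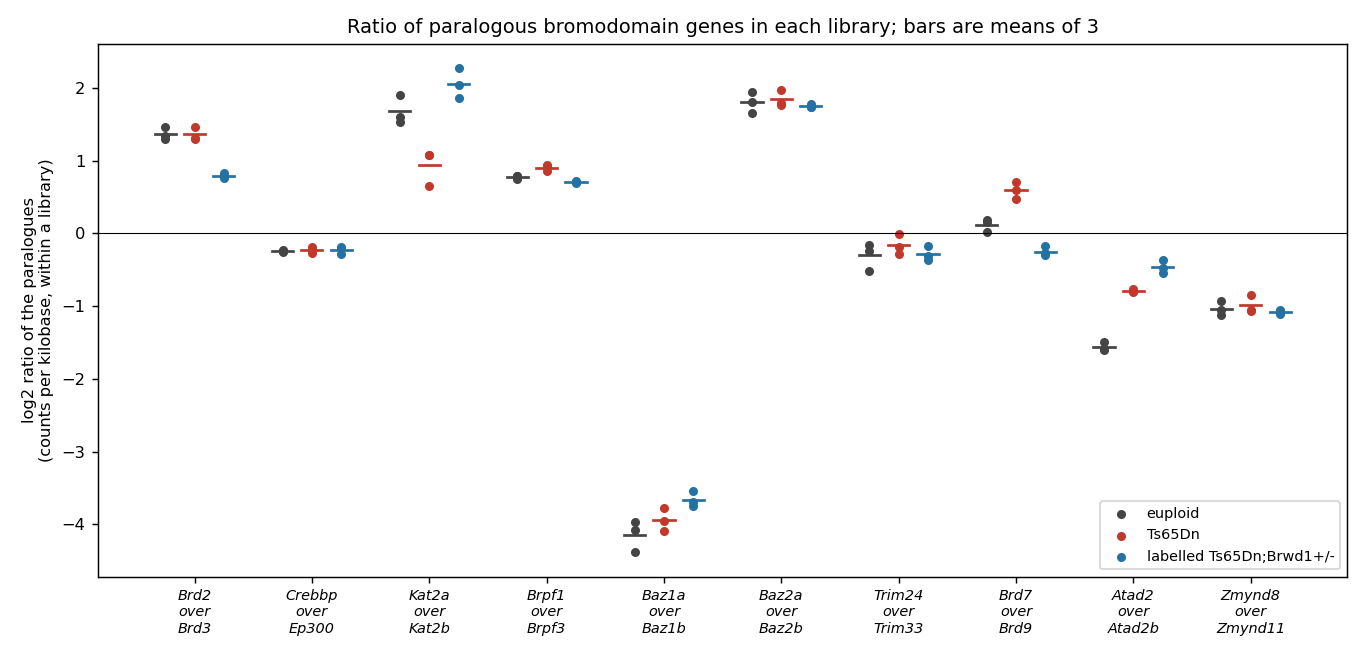
log2 ratio of 10 pairs of paralogous bromodomain genes within each library, from counts per kilobase of exon, with 1 point per library and bars at the mean of 3. Kat2a over Kat2b, Brd7 over Brd9 and Atad2 over Atad2b separate the genotypes by more than the spread of the libraries. The exception is that the euploid and labelled Ts65Dn;Brwd1+/- points of Kat2a over Kat2b overlap. Brpf1 over Brpf3 also separates all 3 genotypes, by smaller steps.

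The genes that write, erase or read the same mark without a bromodomain, and the partners of the proteins above, were taken from 6 lists of 53 genes, all tested. Between Ts65Dn and euploid 21 passed (39.6%, against 46.7% of all tested genes), 12 higher and 9 lower. Between labelled Ts65Dn;Brwd1+/- and Ts65Dn 26 passed (49.1%, against 58.1% of all), 19 higher and 7 lower, and against euploid 16 passed (30.2%, against 29.2% of all), 15 of them higher. Their median log2 fold changes were -0.02, 0.16 and 0.10.

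Of 16 lysine deacetylases, which remove the mark, 4 were higher and 3 lower in Ts65Dn than in euploid cultures, and 5 were higher and 4 lower in labelled Ts65Dn;Brwd1+/- than in Ts65Dn. These shares, 43.8 and 56.2%, lay near those of all tested genes, 46.7 and 58.1%. Hdac1 stood at 22.1 to 24.9, 31.1 to 36.2 and 23.6 to 25.8 CPM in the 3 genotypes, with log2 fold changes of 0.52 and -0.42 in these comparisons, whereas its partner in the same corepressor complexes, Hdac2, stood at 99.5 to 107, 78.8 to 88.7 and 125 to 134 CPM, with -0.28 and 0.61. Hdac11 changed by -0.83 and 0.81, and Hdac7 by 0.86 and -0.76. Between labelled Ts65Dn;Brwd1+/- and euploid cultures 2 of the 16 deacetylases passed (12.5%), fewer than the 29.2% of all tested genes. Of 7 acetyltransferases without a bromodomain, 2 were higher in Ts65Dn than in euploid cultures, among them Kat14 of the ADA2A-containing complex at 0.41. Between labelled Ts65Dn;Brwd1+/- and Ts65Dn 2 of the 7 passed, as higher (28.6%, against 58.1% of all tested genes passing). Against euploid 5 were higher in labelled Ts65Dn;Brwd1+/- cultures. Of all tested genes 25.6% were called higher in Ts65Dn than in euploid cultures and 14% in labelled Ts65Dn;Brwd1+/- than in euploid. Kat6b (MORF), which works with the BRPF scaffolds, was higher by 0.56 against Ts65Dn. All of these named changes had an adjusted p under 0.05 from edgeR.

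Of 15 partners of the bromodomain acetyltransferases and scaffolds, 1 was higher and 4 were lower in Ts65Dn than in euploid cultures, against 25.6 and 21.1% of all tested genes. Usp22, the deubiquitinase of SAGA, stood at 634, 631 and 555 CPM in euploid, 384, 347 and 238 CPM in Ts65Dn and 801, 676 and 693 CPM in labelled Ts65Dn;Brwd1+/- libraries. Ts65Dn replicate 3, which also had the lowest neuronal marker sum, was the lowest of the 9. Its log2 fold changes were -0.91 and 1.16 (edgeR, adjusted p = 0.00155 and 0.000179). Meaf6, a subunit of the MOZ and HBO1 complexes, changed by -0.49 and 0.70.

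Of 7 ISWI partners, 3 were higher and 1 was lower in Ts65Dn, against the same 25.6 and 21.1% of all tested genes. The lower one was the ISWI ATPase gene Smarca1 at 34.0, 29.0 and 28.6 CPM in euploid and 18.7, 18.7 and 10.0 CPM in Ts65Dn (log2 fold change -0.95, edgeR, adjusted p = 0.00371). Of 4 YEATS readers 1 was higher in Ts65Dn, Yeats2 at 0.23, against 25.6% of all tested genes. Of the 4 genes of P-TEFb and its inhibitor, Cdk9 was higher and its cyclin Ccnt1 lower in Ts65Dn, at 0.23 and -0.25, and Hexim1, the inhibitor, was lower in labelled Ts65Dn;Brwd1+/- than in Ts65Dn cultures at -0.52, each with an adjusted p under 0.05 from edgeR.

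In the chromatin data each list was pooled by the authors over its replicates, so no replicate error can be given and the binomial intervals cover counting error only. The lists also differ in length. SMARCA2/4 ChIP gave 22667 peaks in the euploid list, 1290 in that of Ts65Dn and 1873 in that of Ts65Dn;Brwd1+/-, of which 65, 8 and 3 were assigned to the 30 genes. At least 1 peak was assigned to 17 of the 30 genes in the euploid list (56.7%, 95% Wilson interval 39.2 to 72.6%), against 38.6% of all tested genes. In the Ts65Dn list it was 5 of 30 (16.7%, 7.34 to 33.6%) against 4.14%, and in the Ts65Dn;Brwd1+/- list 1 of 30 (3.33%, 0.591 to 16.7%) against 4.89%. Of the member peaks, 56 of 65, 1 of 8 and 1 of 3 had a q-value under 0.05, against 87.8, 31.8 and 58.2% of all peaks in these lists. With those peaks alone, Zmynd8 was the only one of the 30 genes with a peak in the Ts65Dn list.

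Zmynd8, whose protein links acetylated chromatin to the NuRD repressor, held 28 of the 65 euploid peaks. That was the 14th largest number among 7824 genes named in that list, where the median gene had 2 peaks. They lay between 165819358 and 165888774 on chromosome 2, with fold enrichments up to 5.11, and 12 of them were annotated as proximal promoter. It had 3 peaks in each of the other lists, and a peak in all 3 lists was found for 1.51% of all tested genes. Brd2 followed with 8 peaks in the euploid list, of which chr17:34120697-34121007 had the highest fold enrichment of the 65, at 5.18, and 2 in the Ts65Dn list. With Crebbp, Kat2b and Bptf it made up the 4 genes with peaks in the euploid and Ts65Dn lists alone, against 2.24% of all tested genes, and the Ts65Dn peaks of these 4 had q-values of 0.0903 to 1. Peaks of 12 genes were in the euploid list alone, against 31.9% of all, and 13 genes, among them Brd3, Kat2a, Brd7, Brd9 and Atad2, had none, against 60.6%.

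Peaks within the proximal promoter were rarer than peaks anywhere. In the euploid ChIP list 9 of the 30 genes had one, against 22.3% of all tested genes. In the other lists it was 1 of 30 each, Brd2 in Ts65Dn, with a q-value of 0.75, against 0.879% and Zmynd8 in Ts65Dn;Brwd1+/- against 1.35%. Of the 65 euploid peaks, 5 (7.69%, 3.33 to 16.8%) shared at least 1 base with a Ts65Dn peak, where 2.67% of all euploid peaks did. The Ts65Dn peaks in these overlaps all had q-values of 0.0903 or more. The 1 Ts65Dn peak at the 30 genes with a q-value under 0.05, at Zmynd8, overlapped no euploid peak. With 28 of the 65 peaks at Zmynd8, the interval also treats peaks of 1 gene as independent. Fold enrichment of the peaks was like that of the lists as a whole, with medians of 3.72, 3.56 and 3.90 against 3.74, 3.70 and 3.78.

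ATAC peaks at the 30 genes were more evenly spread. The lists of euploid, Ts65Dn and Ts65Dn;Brwd1+/- neurons held 15521, 29195 and 30244 peaks, and 23, 48 and 48 of these were assigned to the 30 genes. At least 1 peak was found for 21 of the 30 (70%, 52.1 to 83.3%) in the euploid list against 53.3% of all tested genes, for 25 (83.3%, 66.4 to 92.7%) against 66.0% in Ts65Dn and for 28 (93.3%, 78.7 to 98.2%) against 65.6% in Ts65Dn;Brwd1+/-. A proximal promoter peak was present for 18, 23 and 21 of the 30, against 45.2, 54.6 and 53.7% of all tested genes. Ep300 and Trim28 were not counted in the last list, where a wider peak still covered an annotated start but was annotated outside the proximal promoter.

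**Figure D4:**
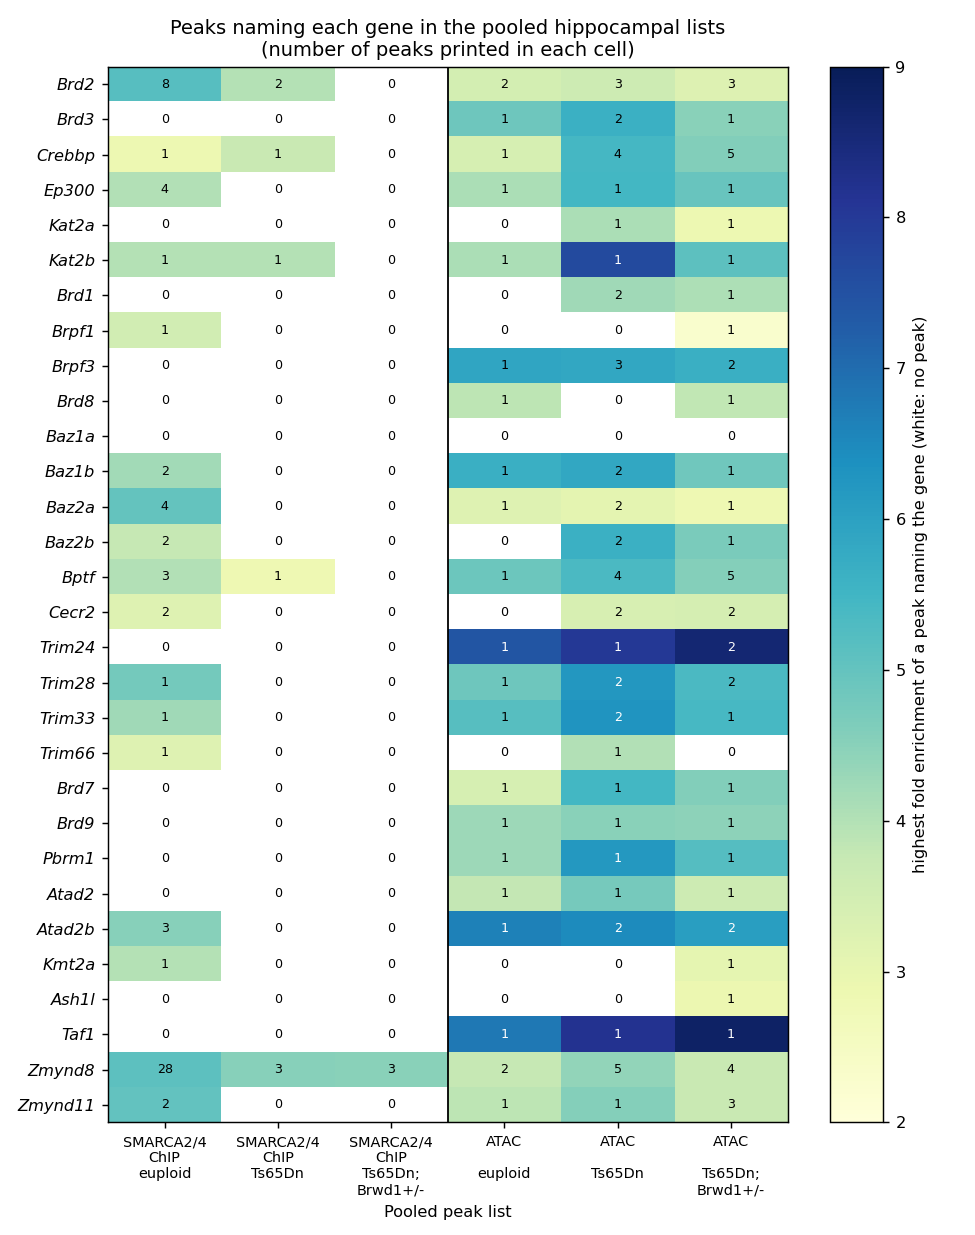
Number of peaks assigned to each of the 30 genes in the 6 pooled hippocampal lists, printed in each cell, with colour for the highest fold enrichment of those peaks and white where there is none. Zmynd8 stands out with 28 peaks in the euploid SMARCA2/4 list, and the ATAC columns are filled for most genes, with Baz1a empty in all 6 lists.

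In all 3 ATAC lists 20 of the 30 genes had a peak, against 50.2% of all tested genes, and Baz1a, the lowest of the 30 per kilobase in euploid cultures, had none in any, as did 28.7% of all. Peaks for Brpf1, Kmt2a and Ash1l were in the Ts65Dn;Brwd1+/- list alone (3.09% of all), for Trim66 in the Ts65Dn list alone (3.65%), for Kat2a, Brd1, Baz2b and Cecr2 in both trisomic lists (11.2%), and for Brd8 in the euploid and Ts65Dn;Brwd1+/- lists (1.02%). All 23 euploid peaks shared at least 1 base with a peak of each other list (96.7 and 96.2% of all euploid peaks did), and of the 48 Ts65Dn peaks 24 (50%) overlapped a euploid one, against 49.9% of all. The highest fold enrichments were at Trim24, with 7.43, 8.03 and 8.59 in the 3 lists, and at Taf1, with 6.80, 8.17 and 8.80. Kat2b had no promoter peak, and a peak in its gene body at 4.08, 7.63 and 5.11, which in the euploid list was chr17:53587585-53587859.

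At the promoters printed above, ATAC peaks covered 277, 213 and 271 of the 300 bases of Brd9 in the 3 lists. Those of Kat2a covered 0, 162 and 109 bases and those of Brd7 0, 300 and 295 bases, the euploid peak of Brd7 lying just downstream at chr8:88361691-88362074. The euploid ATAC list was the shortest of the 3 and the depth behind each list is unknown, so an absent peak does not show closed chromatin. Of the 65 euploid ChIP peaks at the 30 genes, 9 overlapped a euploid ATAC peak (13.8%, 7.46 to 24.3%), against 26.5% of all euploid ChIP peaks. However, 28 of the 65 lay at Zmynd8. The interval treats such peaks of 1 gene as independent, and the share depends in large part on that gene. The tissue and age of these lists differ from those of the cultures, so no change of a peak was tested against a change of expression.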

How the data were processed

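Groups were taken from the labels of 42 samples: 9 culture libraries, 12 ChIP immunoprecipitates with 12 inputs, and 9 ATAC libraries. Raw counts per gene were deposited by the authors, made from reads placed on mm10 by HISAT2. Their methods name featureCounts, whereas the summary lines of the files, which took 37.4 to 40.04% of all counts and were left out, have another counter's form, and use of strand is not given in the sources used here. The authors called ChIP peaks with MACS against input and ATAC peaks with a shift and extension of reads, removed duplicates, and deposited 1 pooled list per genotype and assay, each peak with a fold enrichment (a linear ratio) and a q-value. The stated false discovery filter does not describe the ChIP lists, where q-values of peaks at the 30 genes reached 1. The authors' region annotation and gene assignment were used as deposited.

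Counts were tested with edgeR 4.0.16 in R 4.3.3 (filterByExpr, TMM, quasi-likelihood F-test, all 9 libraries, genotype alone, Benjamini-Hochberg threshold 0.05 over 17173 genes). The test was checked on simulated data. CPM values use TMM-scaled library sizes, and the biological coefficient of variation was 0.12. Log2 fold changes are given with their standard errors, which lay between 0.063 and 0.154 for the 30 genes. Alternatives were other scalings and filters, DESeq2 1.42.0, limma 3.58.1, a threshold of 0.1, a replicate block, and each library left out. RUVr, used by the authors, was not applied. The methods state that the cortices of each embryo were dissociated apart, whereas the labels call the sexes of each culture sample pooled. How embryos map to libraries is not given in the sources used here, so p-values measure the spread between libraries. Paralogue ratios used counts with a pseudocount of 1 per kilobase of GENCODE exon and an exact permutation test. Zmynd11 (6.31% of exon bases), Baz1a (4.83%) and Brd2 (4.6%) share the most bases with other genes. Peaks were counted as shared at 1 base or more. Of the transcripts the peak lists name, 99.7% were in the mm10 annotation.

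All 30 genes could be named; of each other list, at most the 4 genes with the smallest adjusted p against euploid or Ts65Dn. The 30 genes follow a rule of family names that uses no measured value, but this family and the other lists were chosen with earlier results of these data known.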

Additional observations from a re-analysis of the deposited data

How the results depend on the processing

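Of 30 genes, 7 passed in Ts65Dn against euploid, 6 to 9 under the other scalings, filters, tools and thresholds, and 5 to 7 with 1 library left out, of which 5 without euploid replicate 2 and 5 without Ts65Dn replicate 3. For labelled Ts65Dn;Brwd1+/- against Ts65Dn the numbers were 17, 17 to 25 and 14 to 18, and against euploid 10, 9 to 12 and 6 to 11, the 6 without euploid replicate 1. For any difference across genotypes they were 16, 14 to 21 and 13 to 16. Calls that passed in every alternative were Atad2, Trim66, Kat2b and Brd9 in Ts65Dn against euploid, 14 of 17 in the next comparison (not Baz2a, Trim24 and Atad2b) and 6 of 10 in the last (not Kat2b, Brpf3, Baz2a and Kmt2a). No called gene changed direction. Another 12 pairs of gene and comparison passed only in alternatives, most often Zmynd11 in Ts65Dn against euploid (8 of 19), Cecr2 in labelled Ts65Dn;Brwd1+/- against Ts65Dn (8) and Brpf1 against euploid (7). Of 44 pairs of gene and comparison that never passed, 14 changed sign in some alternative, all with an absolute log2 fold change of at most 0.10.

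With the replicate number as a block, 7, 18, 11 and 18 genes passed, and of all tested genes 48.6, 59.8 and 31.4% in the 3 pairwise comparisons, against 46.7, 58.1 and 29.2% without the block. The labels give the numbers no shared litter or day, and the correlation of deviations between libraries of the same number was 0.16, 0.28 and 0.35 for the 3 euploid and Ts65Dn pairs, over 0.1 in each. In that comparison the block changed no call among the 30 genes. In the comparisons with labelled Ts65Dn;Brwd1+/- libraries it ran from -0.24 to 0.38, below 0 for replicate 2, and the numbers were not taken as pairs there. The genes gained with the block were Cecr2 against Ts65Dn and Brpf1 against euploid.

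With q-values under 0.05 alone, 1 gene had a Ts65Dn ChIP peak in place of 5. With peaks within 1000 bases of any annotated start, 28 genes had a Ts65Dn ATAC peak in place of 25. When at least 50% of each of both peaks had to be shared, 2 of the 65 euploid ChIP peaks and 18 of the 23 euploid ATAC peaks overlapped a Ts65Dn peak. Each of these rules changes by construction which peaks count. Depth per ChIP and ATAC library is unknown, and the pooled lists allow no error between animals.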
